A study of Oryctolagus cuniculus with 8 samples.

Results

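The voltage-dependent anion channels VDAC1, VDAC2 and VDAC3 were examined in cultured rabbit pluripotent and somatic cells. They were found as all non-control probes whose RefSeq accession belongs to one of these rabbit genes. This gave 8 of the 43603 probes of the array, and 3 of the 680 genes that could be named. VDAC1 (NM_001082075) had 5 probes, VDAC2 (NM_001082718) had 2 and VDAC3 (NM_001082076) had 1. Probes of one gene measure the same RNA and are not replicates of a condition.

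VDAC proteins are barrel-shaped pores of the mitochondrial outer membrane, through which ATP, ADP, phosphate, respiratory substrates and ions pass between the cytosol and the space between the mitochondrial membranes. In mammals VDAC1 is the best-studied isoform and a docking site for hexokinase, VDAC2 is known for binding the cell-death protein BAK, and VDAC3 is known for its cysteine residues and weaker channel activity. Pluripotent cells are known for intense glycolysis and for small mitochondria with few cristae.

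Each of 8 samples was measured on 1 single-colour array. Induced pluripotent stem (iPS) cells are body cells reprogrammed to a state like that of embryonic stem (ES) cells. The iPS samples were a line of liver origin, iPS-L1, at passage 7 (early) and passage 23 (late), and a line of stomach origin, iPS-S1, at passage 6 (early) and passage 22 (late). The ES samples were the lines rdES4 and rdES2-1, and the somatic samples were cultured liver cells and cultured stomach cells. All came from Dutch rabbits. Culture medium differed: the pluripotent lines received a stem cell medium, and the liver and stomach cells a somatic cell medium, so medium and cell type cannot be told apart. The labels name no reprogramming factors, and each iPS origin is 1 line. They name liver or stomach cells as the origin of a line, not a particular culture. Source cells below means the somatic sample of the same tissue label. Nothing in the labels says that samples came from separate cultures or animals beyond line and tissue names, so the p-values measure only the spread between these samples, which may be technical.

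Each level is a log2 processed signal from which the log2 of its array's 75th percentile was subtracted, so that 0 is the 75th percentile and 1 unit is a doubling. That percentile was 297.0 to 341.7 intensity units on iPS arrays, 274.0 and 310.3 on ES arrays, and 163.5 and 154.7 on liver and stomach cell arrays. The 2 named pluripotency markers, POU5F1 and PODXL, had a summed signal of 294.9 to 353.3 times the 75th percentile on iPS arrays, 261.7 and 339.0 times on ES arrays, and 5.15 and 0.134 times in liver and stomach cells. The 4 named fibroblast markers summed to 2.08 to 3.14 times in iPS cells, 1.88 and 2.21 times in ES cells, and 198.1 and 105.7 times in liver and stomach cells. Albumin (ALB), the defining secreted protein of hepatocytes, and ATP4B, a subunit of the gastric proton pump, did not clear background on any of the arrays. Of the 6 named hepatocyte markers the other 5 were well above background on both somatic arrays, and so were 2 of the 4 named gastric markers, PGC and CTSE. The hepatocyte markers summed to 3.42 to 4.03 times the 75th percentile in iPS cells, 4.38 and 5.93 times in ES cells, and 19.96 times in stomach cells against 4.65 times in liver cells. The gastric markers summed to 0.141 to 0.201 times in iPS cells, 0.175 and 0.186 times in ES cells, and 1.37 times in stomach cells against 5.64 times in liver cells. Both sums thus ran against the tissue labels, but each leaned on its brightest gene, and not every marker did. In liver cells CTSE had a log2 level of 2.46, against -3.95 or lower for the other gastric markers. In stomach cells RBP4 had a level of 3.75, against 2.16 for HP and 0.64 or lower for the other hepatocyte markers. The log2 level of TF was higher in liver than in stomach cells (-1.62 against -2.83), while APOE, HPX, HP and RBP4 were higher in stomach cells. ATP4A was higher in stomach than in liver cells (-4.40 against -4.66). CTSE was higher in liver than in stomach cells (2.46 against 0.32), and PGC slightly so (-3.95 against -4.08). The cells are called liver cells and stomach cells after their labels only. The part of cell type makeup in the results below was not tested. In bulk RNA, fewer cells of a type and less RNA per cell cannot be told apart.

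All 8 VDAC probes were well above background on all 8 arrays, and none was saturated. VDAC1 is represented below by probe A_04_P001313, VDAC2 by A_04_P002292 and VDAC3 by A_04_P000741, in each gene the probe with the highest mean level. Levels of different genes are not set against each other, since probes differ in brightness.

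VDAC1 had a level of 4.83 in iPS-S1 and 4.24 in iPS-L1 cells at early passage, and of 4.72 in iPS-S1 and 4.17 in iPS-L1 cells at late passage. Its level was 3.999 in rdES2-1 and 3.909 in rdES4 cells, against 3.51 in stomach cells and 3.66 in liver cells. The groups did not overlap: every iPS array lay above both ES arrays, which lay above both somatic arrays. Of all tested probes, 38% had all iPS and ES arrays above both somatic arrays, and 10.5% had all iPS arrays above both ES arrays. The share with all 3 groups in this order was not counted. With the passages of a line averaged, the means were 4.49 ± 0.40 in iPS cells, 3.95 ± 0.063 in ES cells and 3.59 ± 0.10 in somatic cells (SD, n = 2 each). The SD of the iPS lines was the widest of the 3 groups, and both iPS-S1 arrays stood above both iPS-L1 arrays. The neighbours in this order, iPS and ES or ES and somatic, did not differ past the threshold in the tests below.

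VDAC2 had a level of 6.11 in iPS-S1 and 5.94 in iPS-L1 cells at early passage, and of 5.97 in iPS-S1 and 5.84 in iPS-L1 cells at late passage. Its level was 5.81 in rdES2-1 and 5.90 in rdES4 cells, against 5.67 in stomach cells and 5.45 in liver cells. The iPS and ES arrays overlapped, and all 6 lay above both somatic arrays. The means were 5.96 ± 0.11 in iPS cells, 5.86 ± 0.066 in ES cells and 5.56 ± 0.16 in somatic cells (SD, n = 2 each). The order was the same as for VDAC1, but the neighbours iPS and ES differed by about the SD between the iPS lines.

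VDAC3 had a level of 1.58 in iPS-S1 and 1.69 in iPS-L1 cells at early passage, and of 1.31 in iPS-S1 and 1.52 in iPS-L1 cells at late passage. Its level was 1.43 in rdES2-1 and 1.48 in rdES4 cells, against 1.15 in stomach cells and 1.22 in liver cells. For VDAC3 too, iPS and ES arrays overlapped and all 6 lay above both somatic arrays. The means were 1.53 ± 0.11 in iPS cells, 1.45 ± 0.037 in ES cells and 1.18 ± 0.054 in somatic cells (SD, n = 2 each). All 3 genes thus had 6 arrays of pluripotent cells above both somatic arrays, as did 38% of the 28848 tested probes.

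**Figure D1:**
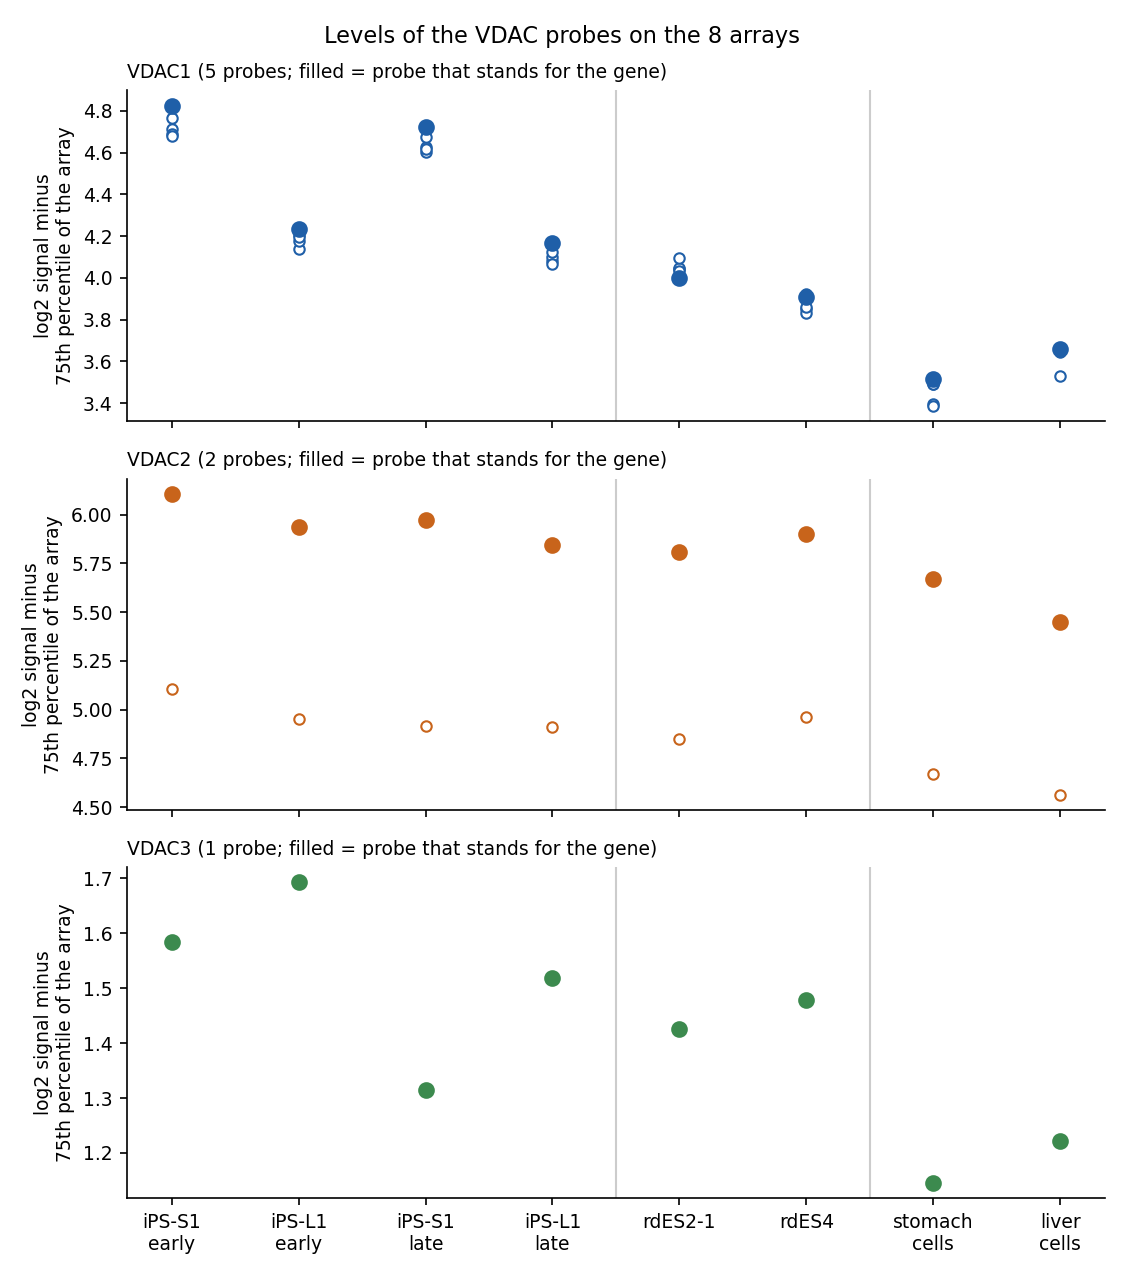
Level of every VDAC1, VDAC2 and VDAC3 probe (panels) on each of the 8 arrays (horizontal axis), on the vertical axis as log2 signal minus the 75th percentile of the array. Each point is 1 probe on 1 array, filled for the probe that stands for the gene, and the vertical axes differ and do not start at 0. The filled points of stomach and liver cells are lowest in each panel, and those of VDAC1 in iPS-S1 (4.83 and 4.72) stand above its others.

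Probes of the same gene gave closely similar profiles. With each profile centred on its mean over the 8 arrays, the root mean square difference between 2 VDAC1 probes was 0.039 to 0.060 in log2 units. Between the 2 VDAC2 probes it was 0.049. Between genes it was 0.294 for VDAC1 and VDAC2, 0.368 for VDAC1 and VDAC3, and 0.141 for VDAC2 and VDAC3. Differences between genes were thus wider than between probes of a gene, and the profiles of VDAC2 and VDAC3 were the closest pair among the VDAC genes. Even so, 11 other named genes lay closer to VDAC2, and 8 closer to VDAC3, than VDAC2 and VDAC3 lay to each other.

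The comparison of iPS with somatic cells asks how the VDAC genes differ between reprogrammed cells and cultured cells of the tissues named as their origin. VDAC1 rose in iPS cells. Its difference was 0.90 ± 0.22 (SE, log2), or 1.87-fold, with a 95% interval of 0.33 to 1.47 and an adjusted p of 0.0175 by limma with Benjamini-Hochberg adjustment over all tested probes. The other VDAC1 probes did the same: over the 5 probes the difference was 0.82 to 0.93, with limma's adjusted p between 0.0148 and 0.0255. VDAC2 was 0.40 ± 0.15 higher (1.32-fold), with an interval of 0.02 to 0.79 and an adjusted p of 0.0602 by limma, just short of the threshold of 0.05. VDAC3 was 0.34 ± 0.13 higher (1.27-fold), with an interval of 0.01 to 0.68 and an adjusted p of 0.0671 by limma. The called probes were thus 5 of the 8, all of VDAC1. Across the array 66.6% of the tested probes were called between these groups, and 34.2% were called higher, so a call is common here. Counted by gene, 1 of the 3 VDAC genes was called. The median difference of the 3 genes was 0.40, against 0.016 over all tested probes. Ranked among the differences of all tested probes, VDAC1 lay at percentile 72.1, VDAC2 at 59.8 and VDAC3 at 58.4, so larger rises were common.

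The VDAC1 call was lost under 2 alternatives. With the slide as a block, the difference was 0.60 with an adjusted p of 0.151 by limma. In that fit the 2 iPS-S1 arrays, alone on their slide, contribute nothing to the comparison. Within the slide that held iPS-L1 and liver cells, VDAC1 was 0.54 higher in iPS-L1 than in liver cells, VDAC2 0.44 and VDAC3 0.38. Without the stomach cells the VDAC1 difference was 0.83 with an adjusted p of 0.0587 by limma. VDAC2, by contrast, passed the threshold without the stomach cells (0.52, adjusted p 0.0433 by limma) and with the line as a random block (0.40, adjusted p 0.0237). VDAC3 passed it without the late iPS-S1 array (0.41, adjusted p 0.0353 by limma).

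The choice of scaling changed the iPS against somatic calls of VDAC2 and VDAC3 but not that of VDAC1. The direction was the same for all 3 genes under each scaling tried. After quantile normalization the iPS minus somatic difference was 0.89 for VDAC1, 0.61 for VDAC2 (limma's adjusted p 0.0151) and 0.30 for VDAC3 (0.0967). With no scaling between arrays it was 1.91, 1.42 and 1.36, and all 3 genes passed the threshold, while the median over all tested probes moved to 1.03, against 0.016 in the main scaling. Relative to that median, the unscaled differences were 0.88, 0.39 and 0.33. After normexp background correction they were 0.97, 0.68 and 0.48, again all past the threshold, with a median of -0.402 over all tested probes, and 1.37, 1.08 and 0.88 relative to it.

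**Figure D2:**
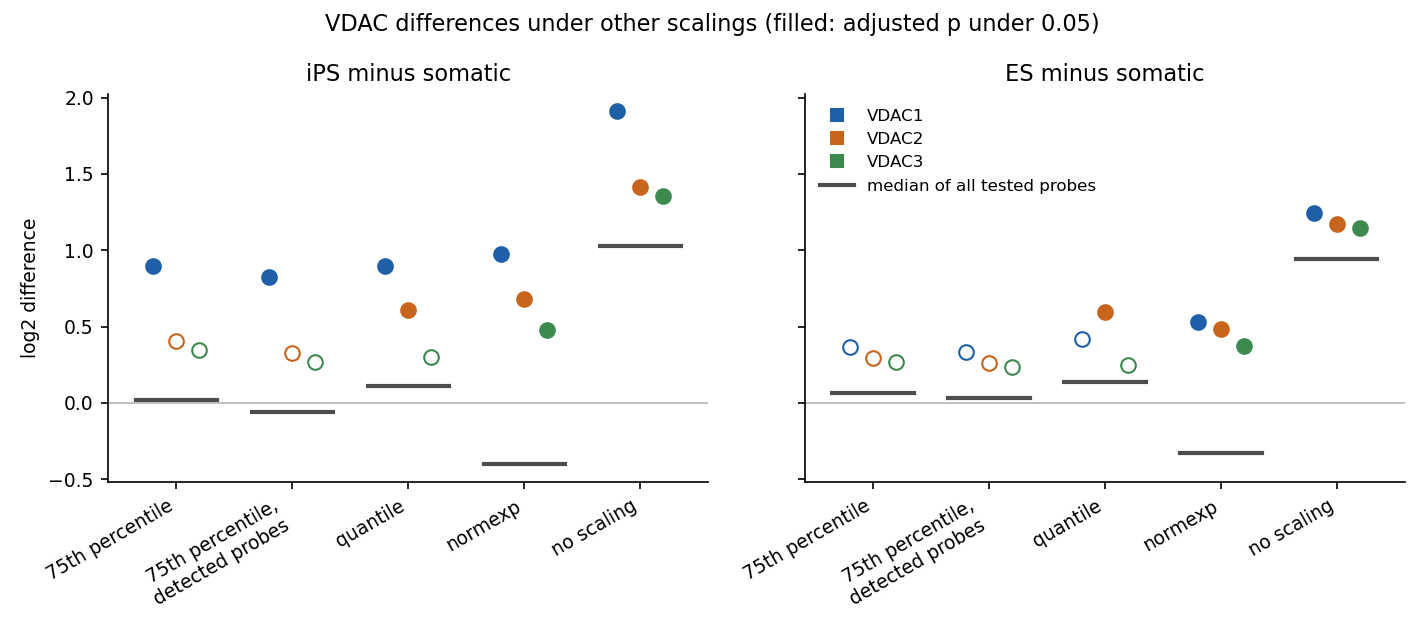
Difference between iPS and somatic cells (left) and between ES and somatic cells (right) in log2 units for VDAC1, VDAC2 and VDAC3 under 5 scalings, with the median over all tested probes beside them. Filled symbols passed an adjusted p of 0.05. With no scaling between arrays, the median of all probes moves up to 1.03 (iPS) and the VDAC differences move with it.

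ES cells also had higher values than somatic cells for each gene, without a call. VDAC1 was 0.37 ± 0.22 (SE) higher in ES cells, with a 95% interval of -0.20 to 0.93 and an adjusted p of 0.202 by limma. VDAC2 was 0.30 ± 0.15 higher, with an interval of -0.08 to 0.68 and an adjusted p of 0.137 by limma. VDAC3 was 0.27 ± 0.13 higher, with an interval of -0.07 to 0.61 and an adjusted p of 0.129 by limma. None of the 8 probes was called, where 63.9% of all tested probes were. All 3 genes passed the threshold after normexp correction, at 0.53, 0.49 and 0.37, and with no scaling between arrays, and VDAC2 also after quantile normalization. Both slides that held an ES and a somatic array gave VDAC1 higher in ES cells, by 0.25 between rdES4 and liver cells and by 0.48 between rdES2-1 and stomach cells.

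The iPS and ES comparison asks whether reprogrammed cells match embryonic ones. VDAC1 was 0.53 ± 0.22 (SE) higher in iPS than in ES cells, with a 95% interval of -0.04 to 1.10, an unadjusted p of 0.0608 and an adjusted p of 0.688 by limma. VDAC2 was 0.11 ± 0.15 higher, with an interval of -0.27 to 0.49, and VDAC3 was 0.07 ± 0.13 higher, with an interval of -0.26 to 0.41. No VDAC probe was called, and neither was any of the tested probes (0%), although 2139 had an unadjusted p under 0.05. All 4 iPS arrays lay above both ES arrays for all 5 VDAC1 probes and for no probe of VDAC2 or VDAC3; this held for 10.5% of all tested probes. Within the one slide that held both groups, the iPS-L1 minus rdES4 difference was 0.29 for VDAC1, -0.014 for VDAC2 (-0.031 for its other probe) and 0.13 for VDAC3. With the slide as a block, the iPS minus ES difference of VDAC1 was 0.23, not called by limma.

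Between late and early passage no VDAC gene was called. The late minus early difference of VDAC1 was -0.07 in iPS-L1 and -0.10 in iPS-S1. That of VDAC2 was -0.09 and -0.13, and that of VDAC3 was -0.17 and -0.27. All 8 probes were lower at late passage in both lines, as were 36% of the tested probes. The fitted late minus early difference of VDAC3 was -0.22 ± 0.13 (SE), with a 95% interval of -0.54 to 0.10 and an adjusted p of 0.719 by limma. That of VDAC1 was -0.09 ± 0.26 and that of VDAC2 -0.11 ± 0.14. This fit does not pair the passages by line. With the line as a block the VDAC1 difference was -0.09 ± 0.13 (SE). Over the whole array limma called 0.0277% of the tested probes, 8 in number, and none when the line was kept as a block.

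**Figure D3:**
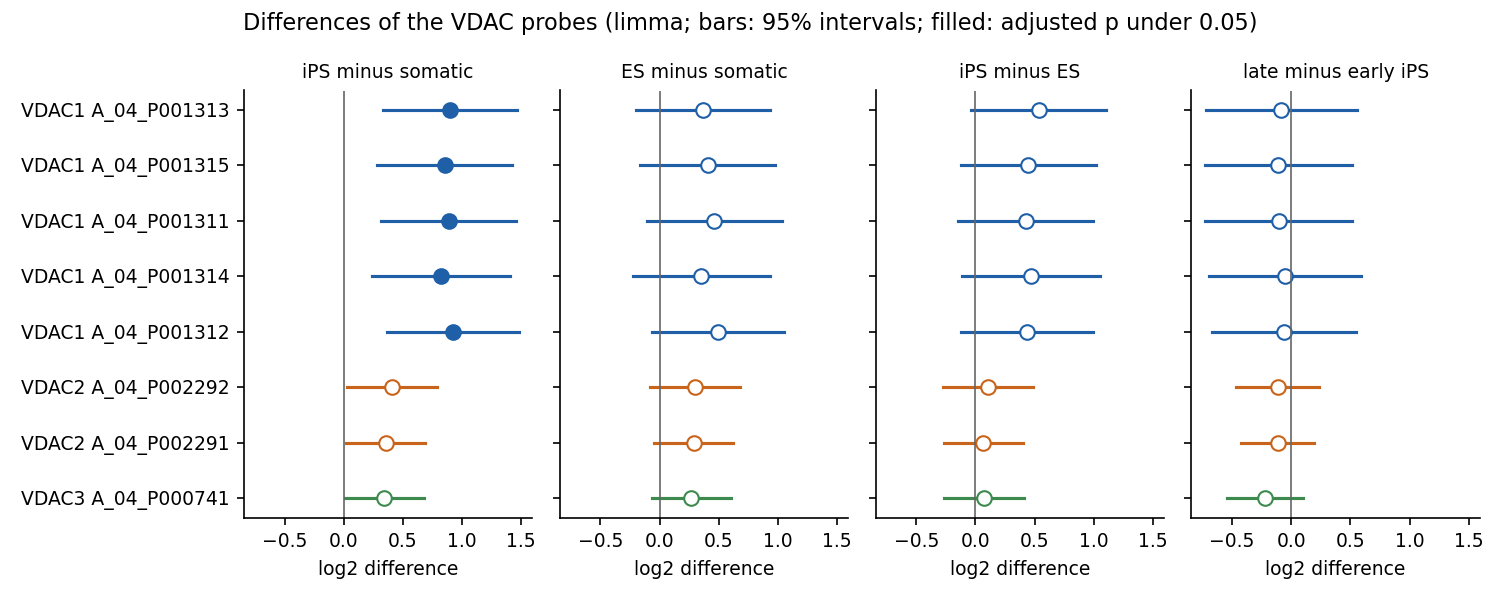
Differences in log2 units with 95% intervals for every VDAC probe in the 4 comparisons (iPS minus somatic, ES minus somatic, iPS minus ES, late minus early iPS). Filled symbols passed an adjusted p of 0.05, which the 5 VDAC1 probes did between iPS and somatic cells.

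The 2 iPS lines differed in VDAC1 and less so in the other members. VDAC1 was 0.59 higher in iPS-S1 than in iPS-L1 cells at early passage and 0.55 higher at late passage. Over the 5 VDAC1 probes the difference was 0.50 to 0.59 at early passage and 0.49 to 0.61 at late passage. In the source cells the direction was opposite, with a stomach minus liver difference of -0.15 for VDAC1. The stomach minus liver difference of VDAC2 was 0.17 at early and 0.13 at late passage, and 0.22 between the source cells; that of VDAC3 was -0.11, -0.20 and -0.08. For comparison, the SD of this difference over all tested probes was 0.508 at early and 0.421 at late passage, and 0.758 between the source cells, so the VDAC1 value of the source cells was small beside that spread. At least 0.5 at both passages was seen for 4 VDAC1 probes and for 2.12% of all tested probes, a limit chosen after the values were seen. With 1 line of each origin there is no test, and line, origin and slide cannot be told apart, since the iPS-S1 arrays had a slide of their own.

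Set against the somatic sample of the same tissue label, iPS-S1 had VDAC1 higher by 1.31 at early and 1.21 at late passage, and iPS-L1 by 0.57 and 0.51. For VDAC2 these differences were 0.43 and 0.30 in iPS-S1, and 0.49 and 0.39 in iPS-L1. For VDAC3 they were 0.44 and 0.17 in iPS-S1, and 0.47 and 0.30 in iPS-L1. Each of these differences was above 0, and those of VDAC1 in the stomach line were the largest among them. Over all tested probes the SD of this difference was 2.09 and 2.06 in iPS-S1, and 2.03 and 2.02 in iPS-L1, at early and late passage. Every VDAC value was thus small beside that spread. The share of tested probes above 0 in both lines at both passages was not counted.

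**Figure D4:**
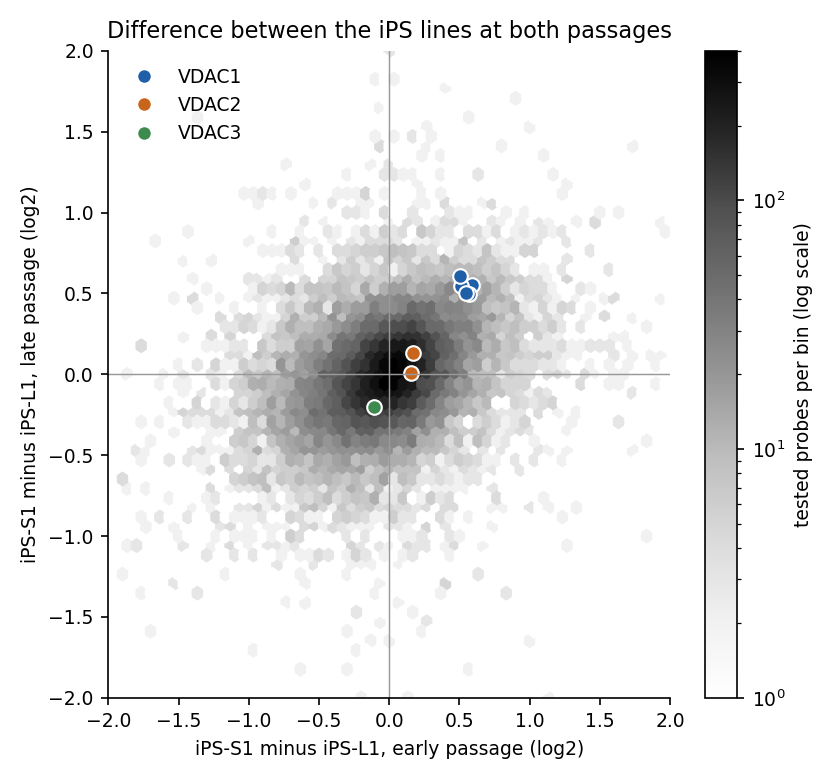
Difference of iPS-S1 minus iPS-L1 in log2 units at early passage (horizontal axis) and late passage (vertical axis), with 1 coloured point per VDAC probe over grey bins that count the tested probes on a log scale; probes beyond the axes are not drawn. The VDAC1 points lie between 0.49 and 0.61 on both axes, the VDAC2 points nearer 0, and the VDAC3 point below 0 on both.

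Differences between members on the same array do not depend on a scaling factor between arrays, but they can depend on how background is handled. The size of such a difference itself has no meaning, as probes differ in brightness. VDAC1 minus VDAC2 was -1.28 and -1.25 in iPS-S1 at early and late passage, -1.70 and -1.67 in iPS-L1, -1.81 in rdES2-1 and -1.99 in rdES4, against -2.16 in stomach cells and -1.79 in liver cells. The iPS arrays lay above all others. The mean moved by 0.50 between iPS and somatic cells and by 0.07 between ES and somatic cells. The iPS-L1 values lay near that of liver cells, while those of iPS-S1, alone on its slide, lay further from that of stomach cells. VDAC1 minus VDAC3 was 2.54 and 2.65 in iPS-L1 against 2.44 in liver cells, and 3.24 and 3.41 in iPS-S1 against 2.37 in stomach cells. VDAC1 minus VDAC3 moved by 0.56 between iPS and somatic cells without overlap, and by 0.10 between ES and somatic cells with overlap. VDAC2 minus VDAC3 moved by 0.06 and 0.03, with overlap in both. How many pairs of other genes separate the groups without overlap was not counted, so the separations have no baseline. By exact two-sided permutation, 2 units against 2 cannot give a p below 0.333, so these values have no test that could pass a threshold. After normexp correction the 3 iPS minus somatic shifts were 0.29, 0.49 and 0.20.

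**Figure D5:**
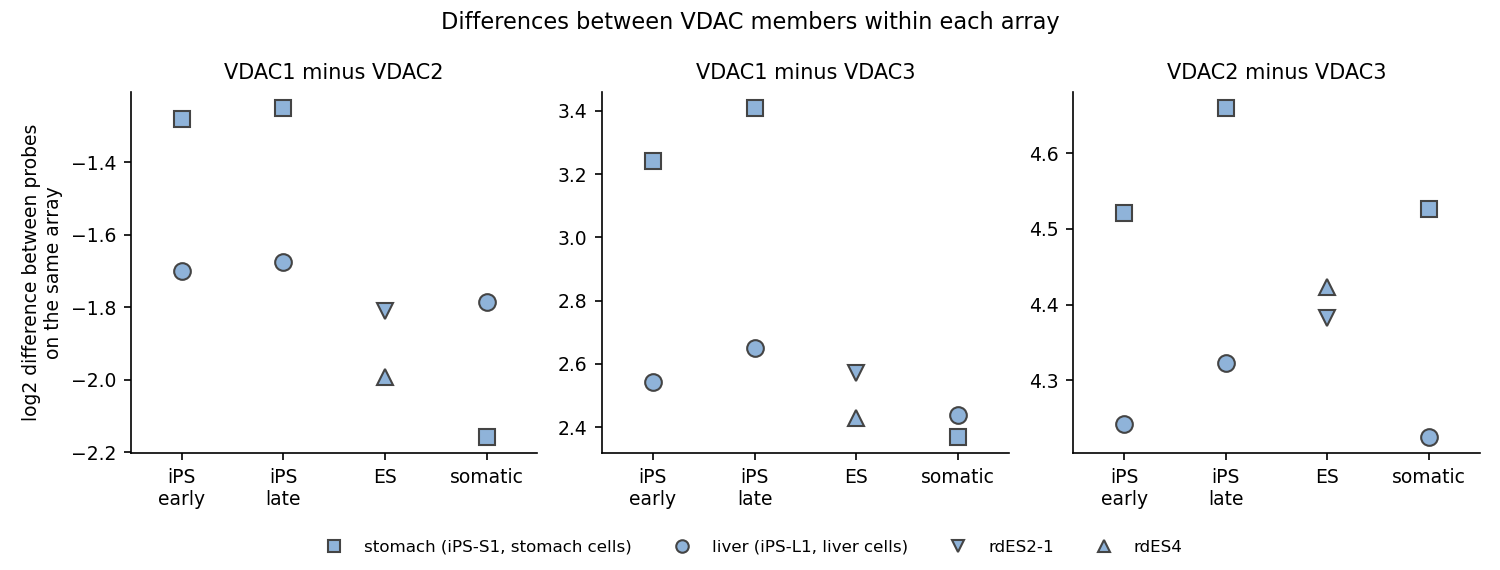
Difference between 2 members on the same array, in log2 units, by group, with 1 point per array and symbols for the tissue of origin or the ES line. Only shifts between groups are meaningful. VDAC1 minus VDAC2 runs from -1.70 to -1.25 in iPS cells and lies at or below -1.79 on the ES and somatic arrays; VDAC2 minus VDAC3 overlaps between all groups.

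Among 508 other named genes, the closest to VDAC1 in profile was ETF1, a translation termination factor, with a root mean square difference of 0.119 over the 8 arrays, against a median of 0.887 over those genes. Like VDAC1 it was higher in iPS-S1 than in iPS-L1 cells, by 0.54 at early and 0.52 at late passage. EIF2B5, part of the exchange factor that recharges a translation initiation factor, followed at 0.181, and HNRNPC, an RNA-binding protein of the nucleus, at 0.255. The genes nearest VDAC2 were TFIP11, a splicing factor (0.0687), ATP2A2, the calcium pump of the endoplasmic reticulum (0.0776), and EIF4G1, a scaffold of translation initiation (0.0850). Those nearest VDAC3 were DAG1, the matrix receptor dystroglycan (0.0993), EIF4G1 (0.108) and EIF3I, a translation initiation subunit (0.116). These rankings describe 8 arrays in 4 groups and carry no test.

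Few genes that work with VDAC proteins could be named on this array. Of 5 carriers of adenine nucleotides and phosphate, 1 was named: SLC25A4, an exchanger of ADP and ATP in the inner membrane, was 0.30 ± 0.16 (SE) higher in iPS than in somatic cells, with an adjusted p of 0.142 by limma, and 0.17 higher in ES than in somatic cells (0.365). None of 5 hexokinases, 24 other outer membrane or contact site proteins, 33 oxidative phosphorylation genes or 25 matrix enzymes was named. Of 13 members of the BCL2 family, 1 was named: BCL2L1, which encodes the survival protein Bcl-xL. BCL2L1 was not well above background on either somatic array and at least 1.69-fold higher in both iPS and ES cells. As it entered the test only through the pluripotent groups, no p-value is read from it. These counts are of list symbols, a few of them aliases of the same gene. The symbols came from a match of the probes to RefSeq, so the genes not named are not analysed here.

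Creatine kinases move phosphate between ATP and creatine, and the mitochondrial form CKMT2 sits between the membranes near VDAC. Of 6 in the list, 3 were named. CKMT2 did not clear background on either somatic array and was at least 24.6-fold higher in iPS and at least 22.7-fold higher in ES cells. It entered the test only through the pluripotent groups, so no p-value is read from it. The cytosolic CKB differed by 0.27 ± 0.30 (SE) between iPS and somatic cells (adjusted p 0.467, limma), and the muscle form CKM by -0.77 ± 0.67 (0.346). Of 14 glycolysis genes 6 were named. In iPS against somatic cells 4 fell, GPI, ALDOA, GAPDH and LDHA, and 2 were not called, where 32.4% of all tested probes were called lower; the median was -1.78, against 0.016 over all tested probes. Between ES and somatic cells GPI, ALDOA, GAPDH and LDHA fell too, SLC2A1, a glucose importer, rose, and 1 was not called. Of all tested probes 29.7% were called lower and 34.2% higher between these groups. The median of the 6 genes was -1.77, against 0.067 over all tested probes. None of the 6 was called between iPS and ES cells.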

How the data were processed

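Total RNA was labelled with Cy3 and hybridised to 1-colour arrays, per the labels. Per the file headers, the deposited intensities were made with Agilent Feature Extraction 10.5.1.1, with no scaling between arrays. The authors' value table is on a log2 scale and correlates at 1 with log2 intensities scaled to the 75th percentile and centred per probe, with column medians of -0.042 to 0.342; it served as an alternative. Here, log2 processed signal minus each array's 75th percentile over non-control probes was used; 19 probes with outlier marks were left out. Probes well above background on both arrays of at least 1 group were tested (28848). Symbols came from a RefSeq table of mOryCun1.1, used for names only. limma 3.58.1 (R 4.3.3) was fitted on 6 units, the passages of an iPS line averaged, or on 8 arrays for passage, and tested on simulated data. Normexp (offset 50) used median signals in place of the planned mean signals. The number of arrays limits precision. The labels give liver and stomach origins in the iPS and somatic groups; liver minus stomach differences correlated across probes at 0.224 between passages and at 0.0211 (early) and 0.0131 (late) with the source cells. With the origin as a block no VDAC call changed. Protein and promoter sequences were not used here. Named genes were the VDAC genes, fixed pathway lists and the 3 closest named genes by profile. Members and lists were chosen with earlier results of these data known.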

Additional observations from a re-analysis of the deposited data

Results flagged for a closer look

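VDAC1 was 0.59 higher in stomach than in liver iPS cells at early passage and 0.55 higher at late passage, but 0.15 lower in stomach than in liver source cells (a log2 difference of -0.15). It stood out because the iPS and source cells moved in opposite directions, although the value of the source cells is small beside the SD of 0.758 over all tested probes in that difference. The difference was not tested, as each line and tissue had 1 sample at each stage.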

How the results depend on the processing

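Every VDAC gene kept its direction between iPS and somatic, ES and somatic, iPS and ES, and late and early cells under each alternative scaling, filter and block tried, but within the slide that held iPS and ES arrays VDAC2 was -0.014. With the slide as a block, limma called 9935 probes between iPS and somatic cells, and VDAC1 lost its call (0.60); its iPS minus ES difference was 0.23. VDAC2 between iPS and somatic cells passed at 0.61 (quantile), 1.42 (no scaling), 0.68 (normexp) and 0.40 with the line as a random block (adjusted p 0.0237 by limma). VDAC3 passed at 1.36 (no scaling) and 0.48 (normexp). Between ES and somatic cells, VDAC1 passed at 1.24 and 0.53, VDAC2 at 1.17 and 0.49, and VDAC3 at 1.14 and 0.37 (no scaling and normexp), and VDAC2 at 0.60 (quantile). Between iPS and ES cells 2 probes were called with no scaling and 6 with the line as a random block. Between passages 0 were called without a filter, with the slide as a block, and with the line as a replicate block, against 8. A percentile over probes well above background on all arrays, chosen after seeing the data, changed no VDAC call. Leaving out 1 array in turn gave 18310 to 19236 calls between iPS and somatic cells, 14973 to 18469 between ES and somatic, 0 between iPS and ES, and 0 to 1 between passages. The ranges between iPS and somatic cells were 0.83 to 0.97 for VDAC1 (call lost without stomach cells), 0.29 to 0.52 for VDAC2 (adjusted p 0.0433 by limma without stomach cells) and 0.28 to 0.41 for VDAC3 (0.0353 without late iPS-S1). They were 0.29 to 0.44, 0.18 to 0.41 and 0.23 to 0.31 between ES and somatic cells, and 0.49 to 0.58, 0.06 to 0.15 and 0.0072 to 0.14 between iPS and ES cells. Between passages they were -0.38 to 0.21 (reversed for VDAC1), -0.20 to -0.03 and -0.32 to -0.12. The passage fit does not pair the arrays of a line, so leaving out 1 iPS array leaves the lines unequal between passages. Within the lines, late minus early VDAC1 was -0.07 in iPS-L1 and -0.10 in iPS-S1. VDAC1 minus VDAC2 ranged from 0.31 to 0.68, -0.12 to 0.26 (reversed) and 0.33 to 0.52 for the iPS minus somatic, ES minus somatic and iPS minus ES shifts. VDAC1 minus VDAC3 ranged from 0.51 to 0.60, 0.025 to 0.17 and 0.39 to 0.53. VDAC2 minus VDAC3 ranged from -0.090 to 0.21, -0.12 to 0.18 and -0.00081 to 0.068, reversed in each. The cause of these changes was not tested.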
